A study of Mus musculus with 6 samples.

Results

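The 8 genes Gfap, Vim, Nes, Cd44, S1pr3, Serpina3n, A2m and Chi3l1 are markers of reactive glia, the state that astrocytes and Müller cells take on after injury. They were found by their symbols in a count table of 23420 genes of the mouse retina, where each of the 8 had 1 row. They are gliosis genes chosen by their levels in the 3 groups of the study, which were known when the list was drawn up. Their levels and fold changes are therefore a description, and the adjusted p values given for them only place each gene in a fit of the whole table. The study asked how the antibiotic minocycline changes the response of the retina to damaging light. Each group held 2 libraries of retinal RNA. Control retinas were untreated. Light-exposed retinas were taken 4 days after 1 h of light at 10000 lux, and minocycline-treated retinas came from mice with the same light exposure and daily injections of 45 mg/kg minocycline into the abdomen for 4 days. The labels name the strain CD1 in all 3 groups, whereas the methods of the study describe adult albino BALB/cJ mice of both sexes, a brighter light and injections that began before the light and were more frequent at first. The labels do not give the drug vehicle to the light-only mice, and the number of retinas behind a library is not given in the sources used here.

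Müller cells are the radial glia of the retina and span its whole depth, while retinal astrocytes lie along the nerve fibre layer. In the healthy retina GFAP protein is found mostly in astrocytes, and after injury Müller cells make it too. Reactive glia also build up other intermediate filaments, raise receptors for matrix and lipid signals, and secrete protease inhibitors and lectins, many of them downstream of cytokines that signal through the receptor subunit gp130 and the transcription factor STAT3. Several of the 8 genes are used by other cells as well: Vim is made by endothelial and mesenchymal cells, and Cd44 by leukocytes.

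The libraries held between 15205930 and 22856922 counts, and 3 counts, the smallest number taken here as a signal, were worth between 0.131 and 0.213 CPM, counts scaled to 1000000 per library. The 8 genes had between 50 and 4685 counts in each library, the fewest in the controls. CPM values were normalised across libraries by the trimmed mean of M values. Rod photoreceptor markers had the highest sum of the cell types examined in every library. The 7 rod genes summed to between 36700 and 88540 CPM, and all 16 Müller cell genes examined were present, with a sum between 2450 and 4627 CPM. Control replicate 1 differed from the other 5 libraries in its sex-linked genes, with 77778 counts of Xist and 11 counts over 4 Y-linked genes, against at most 188 and at least 6532 in the others. The 2 minocycline columns carry the same heading and are called minocycline A and B here. Because the tissue was sequenced in bulk, a change in the number of glia and a change in the RNA of each glial cell cannot be told apart.

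Gfap, Vim, Cd44, Serpina3n, A2m and Chi3l1 rose after light, by between 2.69-fold and 14.6-fold in mean CPM, and Serpina3n changed the most. Nes and S1pr3 were 1.72-fold and 1.75-fold higher and did not pass. The 6 genes had an adjusted p below 0.05 by quasi-likelihood testing in edgeR, adjusted after Benjamini and Hochberg over 14349 genes, where 7.52% of all genes tested passed as higher. With a further cutoff of a log2 fold change of 2, the one the study used, Gfap, Serpina3n and Chi3l1 were called (2.89% of all genes). Gfap, at 2.02, was close to this cutoff, and fell under it with shrunken fold changes in DESeq2 (1.73), without control replicate 1 (1.73) and without light replicate 2 (1.63). Both light libraries lay above both control libraries for all 8 genes, as they did for 30.6% of genes. The median log2 fold change was 1.60 over the 8 genes and 0.0025 over all genes tested.

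**Figure D1:**
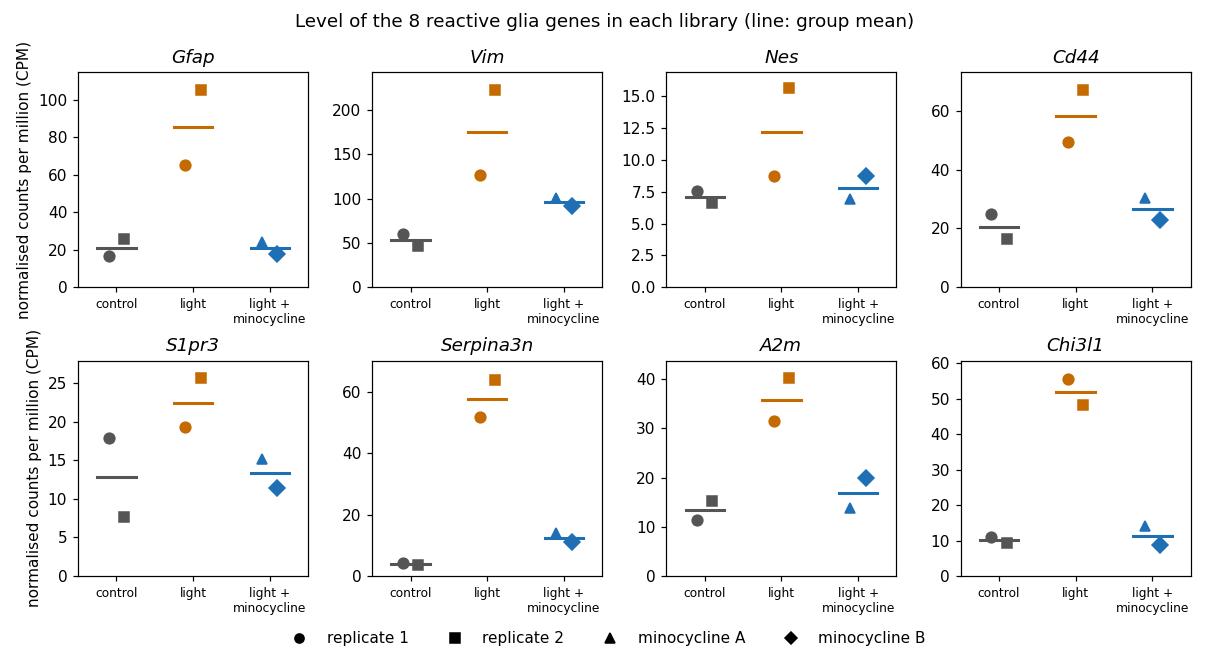
Normalised CPM of each gene (vertical axis, from 0) in the 2 control, 2 light and 2 minocycline libraries, with a line at each group mean. Both light points lie above all control and minocycline points for each of the 8 genes, and the gap is narrowest for Nes, at 8.69 CPM in minocycline B and 8.71 CPM in light replicate 1.

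The first 3 genes code for intermediate filaments. Gfap, the filament protein that defines astrocytes, lies at chr11:102887336-102900912 on the minus strand (GRCm38). Vim, which codes for vimentin, the filament of many glial and mesenchymal cells, lies at chr2:13573927-13582826 on the plus strand. Nes, at chr3:87971078-87980451 on the plus strand, codes for nestin, a filament of neural progenitors that reactive glia also make. The last 100 bases before the RefSeq transcription start (GRCm38.p6, read in the direction of the gene) are given for Gfap and Vim because these are the filament genes that rose, with a TATAAA match in capitals. They cover chr11:102897201-102897300 on the minus strand and chr2:13574211-13574310 on the plus strand. Both RefSeq starts lie inside the spans given to the genes above.
Gfap: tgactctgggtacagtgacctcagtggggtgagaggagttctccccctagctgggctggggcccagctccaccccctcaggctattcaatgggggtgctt
Vim: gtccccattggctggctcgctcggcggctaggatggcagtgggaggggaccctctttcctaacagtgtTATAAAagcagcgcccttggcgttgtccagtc

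Gfap stood at 16.8 and 25.6 CPM in the controls, 65.5 and 105 CPM after light, and 24.4 and 17.7 CPM with minocycline. The light libraries stood clear of the other 4, and the control and minocycline libraries overlapped. The group means were 21.2 ± 6.22, 85.3 ± 28.0 and 21.1 ± 4.75 CPM (SD, n = 2 each), and the fitted log2 fold change of light over control was 2.02 (SE 0.29, adjusted p = 0.0154). Vim stood at 60.4 and 46.8 CPM in the controls, 127 and 223 CPM after light, and 100.3 and 92.2 CPM with minocycline. Here the 3 groups did not overlap, and the minocycline libraries lay between the others. The means of Vim were 53.6 ± 9.61, 175 ± 67.4 and 96.2 ± 5.73 CPM, and its log2 fold change after light was 1.71 (SE 0.28, adjusted p = 0.0197). Nes was the weakest filament gene, at 7.54 and 6.62 CPM in the controls, 8.71 and 15.6 CPM after light, and 6.92 and 8.69 CPM with minocycline. Its higher mean after light came mostly from light replicate 2, and the log2 fold change was 0.79 (SE 0.31, adjusted p = 0.12).

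Cd44 and S1pr3 code for cell surface receptors. CD44 binds hyaluronan and osteopontin in the matrix, and S1PR3 is a G protein-coupled receptor for the lipid sphingosine-1-phosphate. Cd44 (chr2:102811141-102901665, minus strand) stood at 24.8 and 16.5 CPM in the controls, 49.2 and 67.2 CPM after light, and 30.4 and 22.95 CPM with minocycline. Both light libraries were well above the rest, and its log2 fold change after light was 1.50 (SE 0.23, adjusted p = 0.0108). S1pr3 (chr13:51408639-51422797, plus strand) stood at 17.9 and 7.68 CPM in the controls, 19.2 and 25.7 CPM after light, and 15.2 and 11.5 CPM with minocycline. The 2 controls of S1pr3 were 2.33-fold apart, more than for any other of the 8 genes, and control replicate 1 came close to light replicate 1. The log2 fold change of S1pr3 after light was 0.82 (SE 0.39, adjusted p = 0.229), against 1.54 (adjusted p = 0.0646) without control replicate 1 and 0.32 (adjusted p = 0.461) without control replicate 2.

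The last 3 genes code for secreted proteins. Serpina3n, at chr12:104406729-104414329 on the plus strand, codes for a serine protease inhibitor and lies in a cluster of close relatives. Chi3l1, named Chil1 in current annotation and found at chr1:134182176-134190181 on the plus strand, codes for a chitinase-like lectin without enzyme activity, also called YKL-40. A2m, at chr6:121635376-121679227 on the plus strand, codes for alpha-2-macroglobulin, a broad protease trap of plasma. The bases before the start of Serpina3n (chr12:104406608-104406707, plus strand) are given because it had the largest change of the 8, and they hold no TATAAA.
Serpina3n: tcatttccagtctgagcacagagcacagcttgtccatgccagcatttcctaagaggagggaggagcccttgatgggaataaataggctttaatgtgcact

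Serpina3n stood at 4.41 and 3.52 CPM in the controls, 51.8 and 63.9 CPM after light, and 13.9 and 11.2 CPM with minocycline. It was the lowest of the 8 in the controls by CPM not divided by length, and its 3 groups did not overlap. The means were 3.97 ± 0.627, 57.8 ± 8.58 and 12.6 ± 1.94 CPM, and its log2 fold change after light was 3.87 (SE 0.21, adjusted p = 2.09e-05). That was the lowest p of all 14349 genes, and by size of fold change it had rank 150.
Chi3l1 stood at 10.9 and 9.44 CPM in the controls, 55.5 and 48.1 CPM after light, and 14.0 and 8.64 CPM with minocycline. It was the only one of the 8 whose level was lower in light replicate 2 than in light replicate 1. Its means were 10.2 ± 1.07, 51.8 ± 5.22 and 11.3 ± 3.81 CPM, and its log2 fold change after light was 2.35 (SE 0.18, adjusted p = 0.000263), rank 3 by p. A2m stood at 11.4 and 15.3 CPM in the controls, 31.4 and 40.2 CPM after light, and 13.8 and 19.8 CPM with minocycline. Again the light libraries stood apart, and the log2 fold change was 1.43 (SE 0.21, adjusted p = 0.00818).

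Reads of Serpina3n can also match its neighbours. Of the 2015 windows of 50 bases in its transcript, the length of the reads, 139 (6.9%) also occurred in another gene of the cluster, some of them in several, with the highest numbers in Serpina3e-ps (54) and Serpina3g (51). The other 7 genes shared none with another gene, but S1pr3 overlaps a noncoding gene on the opposite strand by 45 bases. The 10 other Serpina3 genes looked up summed to 6.68 and 3.24 CPM in the controls, 24.1 and 28.1 CPM after light, and 10.9 and 5.04 CPM with minocycline, below Serpina3n in every library except control replicate 1, and 5 were high enough to test. Of these, Serpina3f, Serpina3m, Serpina3h and Serpina3i rose after light, with log2 fold changes of 4.63 (SE 0.61, adjusted p = 0.00627), 3.52, 2.31 and 1.92. Serpina3f had 1 and 2 counts in the controls and 41 and 67 after light, a ratio of 26.7 (95% counting interval 8.88 to 131). Serpina3g had 1.15 (adjusted p = 0.164), and Serpina3c had too few counts to test. Serpina3h, the strongest of them at 14.7 and 15.5 CPM after light, shared no window with Serpina3n. How the counting treated reads with several matches is not given in the sources used here.

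Levels were compared between genes after division by the length of all exons joined. After light, Vim was highest at 36.9 ± 14.2 CPM per kb, followed by Serpina3n at 28.0 ± 4.16, Gfap at 20.2 ± 6.64 and Chi3l1 at 18.5 ± 1.86. Cd44 at 8.59 ± 1.88, A2m at 5.11 ± 0.887 and S1pr3 at 5.03 ± 1.02 came next, and Nes was lowest at 1.90 ± 0.763 CPM per kb. The libraries of Vim and Serpina3n overlapped, as did those of Gfap and Chi3l1 and those of A2m and S1pr3. In the controls the order was Vim (11.3 CPM per kb), Gfap (5.02), Chi3l1 (3.64), Cd44 (3.04), S1pr3 (2.87), Serpina3n (1.92), A2m (1.90) and Nes (1.10). Serpina3n thus stood in place 6 in the controls and in place 2 after light. With the longest transcript as the length, Vim, Gfap and Chi3l1 all came before Serpina3n after light.

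**Figure D2:**
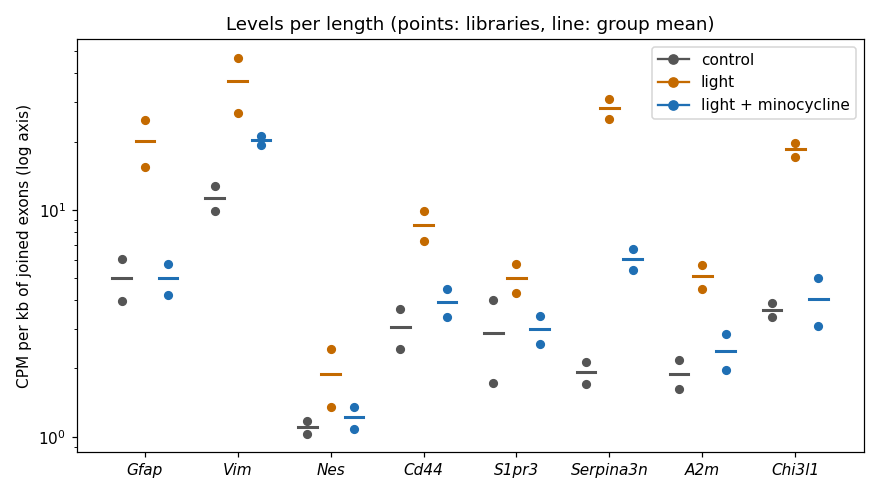
CPM per kb of joined exons (log axis) for the 8 genes, with 1 point per library and a line at each group mean. After light Serpina3n, at 28.0 CPM per kb, stands beside Vim at 36.9, whereas in the controls it stands at 1.92 against 11.3 for Vim.

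The count of genes that passed after light depended on the controls. Without control replicate 1 only Serpina3n and Chi3l1 passed (2 of 8), and without control replicate 2 only these and A2m (3 of 8), although the log2 fold changes of all 8 genes stayed above 0 (0.32 to 4.03). Over the whole table the genes passing fell as well, to 4 without control replicate 1 and to 20 higher and 37 lower without control replicate 2. Nes passed without light replicate 1, at a log2 fold change of 1.15 (adjusted p = 0.0135), in a fit where 1683 of 14753 genes passed as higher, and stood at 0.30 (adjusted p = 0.817) without light replicate 2.

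All 8 genes were lower with minocycline than after light alone, and both minocycline libraries lay below both light libraries for each of them, as for 28.8% of genes. Serpina3n fell to 12.6 CPM, a log2 fold change of -2.19 (SE 0.18, adjusted p = 0.0307 over 14750 genes), and was the only one of the 8 that passed, where 0.0407% of all genes tested passed as lower and 0.0339% with the fold cutoff. Chi3l1, at -2.17 (SE 0.24, adjusted p = 0.0515), and Gfap, at -2.00 (SE 0.27, adjusted p = 0.0691), came next in size. The median over the 8 genes was -1.10, against 0.0062 over all genes tested. Their unadjusted p was under 0.05 in 7 of the 8 genes, Nes being the exception.

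The remaining 5 genes had smaller differences. The log2 fold changes of minocycline over light alone were -1.11 for Cd44 (SE 0.20, adjusted p = 0.0698), -1.08 for A2m (SE 0.23, adjusted p = 0.0775), -0.85 for Vim (SE 0.26, adjusted p = 0.145), -0.74 for S1pr3 (SE 0.22, adjusted p = 0.127) and -0.63 for Nes (SE 0.33, adjusted p = 0.33). In the whole table only 8 genes passed in this comparison, against 3117 with an unadjusted p under 0.05. DESeq2 on the same libraries passed 463 genes as higher, 734 as lower, and 6 of the 8 glial genes, leaving out Nes and S1pr3. With total library size in place of the normalisation, Serpina3n no longer passed (adjusted p = 0.0986), at a log2 fold change of -2.36.

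**Figure D3:**
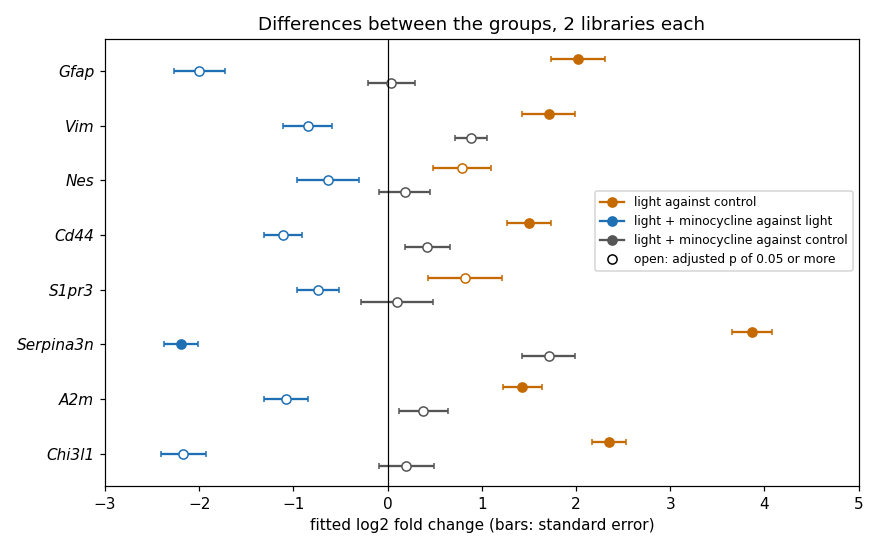
Fitted log2 fold change of each gene (horizontal axis, bars show the standard error) in the 3 comparisons of 2 libraries with 2, filled where the adjusted p was under 0.05. Filled points are 6 of 8 for light against control and only Serpina3n for minocycline against light, and Vim and Serpina3n lie farthest to the right for minocycline against control, at 0.89 and 1.71.

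Against the untreated controls, the minocycline-treated retinas still had more Serpina3n and Vim in both libraries, and the other 6 genes overlapped with the controls. None of the 8 passed in edgeR (0 of 8, where 0.162% of 14181 genes tested passed as higher), 2 had an unadjusted p under 0.05 and 2 passed in DESeq2, in each case Serpina3n and Vim. Of all genes tested, 994 had an unadjusted p under 0.05, and 164 passed as higher in DESeq2. Serpina3n was 3.17-fold the control mean, at a log2 fold change of 1.71 (SE 0.28, adjusted p = 0.078), and Vim was 1.80-fold, at 0.89 (SE 0.17, adjusted p = 0.121). The minocycline libraries lay above both controls for 15.9% of all genes. Gfap had a log2 fold change of 0.04 (SE 0.25, adjusted p = 0.969), Chi3l1 of 0.20 (SE 0.29), Cd44 of 0.42 (SE 0.24), A2m of 0.38 (SE 0.26), Nes of 0.18 (SE 0.27) and S1pr3 of 0.10 (SE 0.38). These 3 comparisons share libraries, so the fold changes of 1 gene are not independent of each other.

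The rise in mean CPM after light can be set beside what was left of it with minocycline. Ranges in brackets come from leaving out each library in turn, a step chosen after the data were seen. Of the rise of Serpina3n 16.0% (13.4 to 18.5%) was present in the minocycline libraries, and of that of Vim 35.2% (25.2 to 57.9%). The share was -0.17% (-7.54 to 6.25%) for Gfap and 2.73% (-3.74 to 9.19%) for Chi3l1. It was 16.1% (5.76 to 26.0%) for Cd44 and 15.5% (2.09 to 28.8%) for A2m. The range was widest for S1pr3 (-102 to 38.1%) and Nes (-3.07 to 44.8%), followed by Vim. The sign of the share was not fixed for Gfap, Chi3l1, Nes and S1pr3. The highest share of Vim and of Nes was that without light replicate 2, the highest of A2m that without minocycline A and the highest of Cd44 that without minocycline B. With 2 libraries a group these shares carry no test, and for Nes and S1pr3 the rise itself did not pass.

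The 2 light libraries differed from each other in the same direction for most of the 8. The level was higher in light replicate 2 than in light replicate 1 for 7 genes, from 1.23-fold for Serpina3n to 1.79-fold for Nes, and 0.867-fold for Chi3l1. Of the 13977 genes tested in all 3 comparisons, 49.5% were higher in light replicate 2. The other groups had a similar split: 6 of the 8 were higher in minocycline A than in minocycline B, as were 50.5% of these 13977 genes. For 6 of the 8 the level was higher in control replicate 1 than in control replicate 2. Markers of other cells also differed between the 2 light libraries. The 10 microglia markers, all present in the table and in every library, summed to 367 CPM in light replicate 1 and 1151 CPM in light replicate 2, against 55.9 and 62.5 CPM in the controls and 101 and 54.8 CPM with minocycline. Their median log2 fold change was 3.57 after light, with 4 of 10 passing, and -3.27 with minocycline over light, with 0 of 10 passing in edgeR and 9 with an unadjusted p below 0.05. The 7 rod markers summed to 88540 and 69230 CPM in the controls, 51930 and 36700 CPM after light, and 75840 and 81500 CPM with minocycline. The part of these shifts in the CPM of the glial genes was not tested.

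Genes of resting glia had smaller median changes than the 8. The 16 Müller cell genes summed to 3466 and 2450 CPM in the controls, 4018 and 4627 CPM after light, and 4440 and 3384 CPM with minocycline. Of them 5 rose after light (median log2 fold change 0.73) and none passed with minocycline over light in edgeR (median -0.27, 6 with an unadjusted p below 0.05). The 6 astrocyte markers summed to 31.9 and 26.4 CPM, 51.0 and 72.8 CPM, and 45.3 and 43.4 CPM in the same order, with 1 of 5 tested rising after light and Pax2 at 3 to 16 counts. The 6 endothelial markers, of which 1 rose after light, lay between 176 and 345 CPM in all 6 libraries.

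Markers of several other cell types were highest in the minocycline libraries. The 6 melanocyte markers summed to 307.5 and 1392 CPM in minocycline A and B, against at most 74.3 CPM in the other libraries. The 7 smooth muscle and pericyte markers reached 101 and 357 CPM there, the 6 corneal epithelium markers 190.5 and 269 CPM, and the 6 stromal fibroblast markers 37.1 and 149 CPM, against at most 46.7, 14.9 and 15.6 CPM elsewhere. In the smooth muscle and pericyte list 5 of 7 genes were higher than after light alone. The pericyte markers Pdgfrb and Rgs5, named after their values were seen, had log2 fold changes of -0.12 and -0.01. Vim, which several of these cell types also express, stood at 100.3 and 92.2 CPM in A and B, and the part of these cells in its level was not tested. Without minocycline B the log2 fold change of Vim over control was 0.91 (adjusted p = 0.00985), and without minocycline A it was 0.82 (adjusted p = 0.0213). For Serpina3n the same values were 1.82 (adjusted p = 9.23e-05) and 1.53 (adjusted p = 0.00262). More genes passed as higher over the whole table in these fits too, 438 of 14398 without minocycline B and 407 of 14419 without minocycline A, against 23 of 14181 with both. Lens markers were high in light replicate 1 (196 CPM, against at most 20.1 CPM elsewhere), and the 6 pigment epithelium markers lay between 110 and 349 CPM. The 6 housekeeping genes had a median log2 fold change of -0.16 after light and -0.01 with minocycline over light, with none passing.

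**Figure D4:**
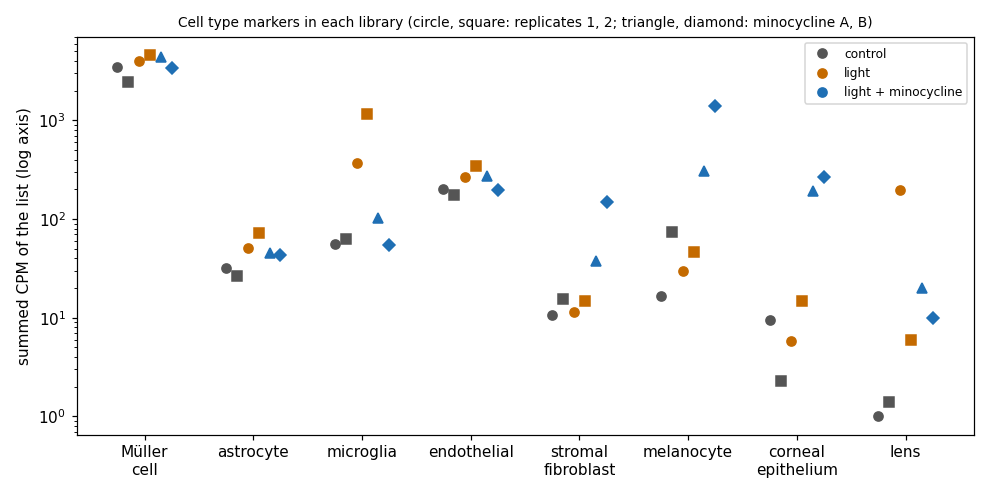
Summed CPM of each list of cell type markers (log axis) in the 6 libraries. Microglia markers are highest in the light libraries, at 367 and 1151 CPM, and melanocyte, stromal and corneal markers in the minocycline libraries.

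Other genes of reactive glia rose after light as well. All 5 tested genes of a pan-reactive astrocyte list (8 genes beside those described above) rose after light, with a median log2 fold change of 3.13, led by Steap4, a metalloreductase, at 5.65 (SE 0.34, adjusted p = 2.61e-05). Timp1, an inhibitor of matrix metalloproteinases, rose by 4.53 (SE 0.45, adjusted p = 0.00134) and Lcn2, which binds iron-carrying siderophores, by 3.13 (SE 0.24, adjusted p = 0.000312). The same 3 genes fell with minocycline, at -3.66 for Steap4 (adjusted p = 0.0239), -3.74 for Timp1 (adjusted p = 0.0444) and -3.32 for Lcn2 (adjusted p = 0.0444), so 3 of 6 tested passed as lower, with a median of -3.49. Steap4 went from 0.427 and 0.493 CPM in the controls to 26.5 and 20.3 CPM after light, and stood at 2.00 and 1.64 CPM with minocycline.

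The next lists carry the names A1 and A2 from work on brain astrocytes, used here as labels only.
Of 11 tested A1 genes 8 rose after light (median 2.46). They included Iigp1, an interferon-inducible GTPase, at 3.62 (SE 0.89, adjusted p = 0.0283; 2 and 0 counts in the controls, 11 and 26 after light, a ratio of 13.7 with a 95% counting interval of 3.53 to 117), Psmb8, a subunit of the immunoproteasome, at 3.28 (SE 0.44, adjusted p = 0.00806), and Serping1, the inhibitor of complement C1, at 3.15 (SE 0.28, adjusted p = 0.000739). Of 10 tested A2 genes 4 rose (median 1.20), led by Emp1, an epithelial membrane protein, at 3.04 (SE 0.51, adjusted p = 0.0142), with Cd14, a receptor for bacterial lipopolysaccharide, at 2.40 and Sphk1, a sphingosine kinase, at 1.70. With minocycline none of the 11 A1 genes tested (median -1.57) and none of the 11 A2 genes tested (median -0.65) passed against light alone, while 8 and 7 of them had an unadjusted p below 0.05 in either direction. Of the 11 genes tested in each list, 1 A1 gene and 5 A2 genes were higher with minocycline than after light alone. Several of these genes are also made by myeloid cells, whose markers rose in the same libraries.

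The gp130 and STAT3 list holds cytokines, receptors, kinases and feedback genes of a pathway known to act on Gfap. Of 17 tested genes of 21, 3 rose after light: Il6ra, the receptor for interleukin-6, at 2.74 (SE 0.65, adjusted p = 0.0286), Osmr, the receptor for oncostatin M, at 1.84 (SE 0.40, adjusted p = 0.0411), and the cytokine Lif at 1.38 (SE 0.36, adjusted p = 0.0352). Lifr, the receptor for Lif, fell by 0.65 on the log2 scale (SE 0.16, adjusted p = 0.0315), where 3.8% of all genes tested passed as lower. The list had a median of 0.44 after light and -0.21 with minocycline over light, with none passing in the latter comparison in edgeR and 7 with an unadjusted p below 0.05. Stat3 itself stood at 76.2 and 163 CPM in the controls, 182 and 193 CPM after light, and 116 and 110 CPM with minocycline, and did not pass after light (0.65, SE 0.37, adjusted p = 0.329). Stat3 is named here after its values were seen, since the list carries its name.

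Relatives and partners of single members were mixed. Of 10 other intermediate filament and linker genes, only the nuclear lamin gene Lmna rose after light, at 1.14 (SE 0.28, adjusted p = 0.0275), and Lmnb1, another lamin gene, fell by 0.59 (SE 0.14, adjusted p = 0.028), with a median of 0.27. Of 10 tested hyaluronan and CD44 partners, 2 rose: Msn, which codes for moesin, a link from CD44 to actin, at 1.89 (SE 0.38, adjusted p = 0.0417), and Mmp14, a membrane metalloproteinase, at 1.40 (SE 0.34, adjusted p = 0.0303). Spp1, the gene of the CD44 ligand osteopontin, named after its values were seen, stood at 4.62 and 4.58 CPM in the controls and 367 and 1669 CPM after light, with a log2 fold change of 7.79 (SE 1.21, adjusted p = 0.061), and at 14.2 and 20.9 CPM with minocycline. In the sphingosine-1-phosphate list 2 of 7 tested genes rose, S1pr2, another receptor for this lipid, at 2.15 (SE 0.49, adjusted p = 0.0235) and Sphk1, an enzyme that makes it. None of the filament, CD44, sphingosine-1-phosphate or Serpina3 lists had a gene that passed with minocycline over light, and their medians were 0.40, -0.34, -0.47 and -1.67. In that order 3, 2, 4 and 4 of their genes had an unadjusted p below 0.05 there in edgeR, in either direction, as did 3117 of all 14750 genes tested. In the same order 8 of 10, 3 of 10, 1 of 7 and 0 of 5 genes tested were higher with minocycline than after light alone. Of the relatives of A2m and Chi3l1, 7 of the 10 symbols looked up were in the table and none had enough counts to test. Pzp, which once bore the name A2m, was among them.

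**Figure D5:**
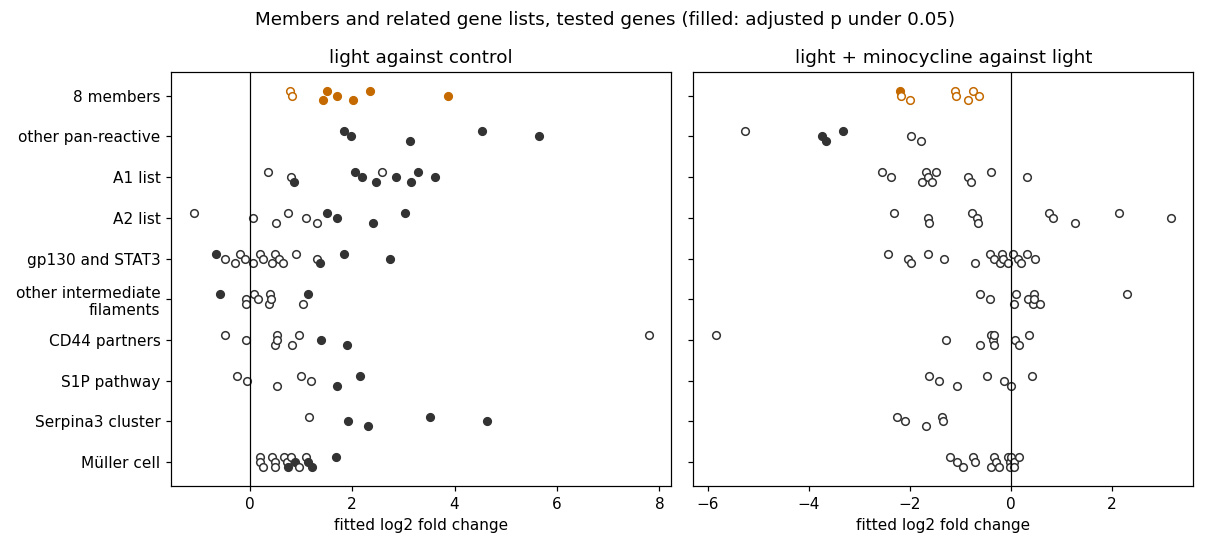
Fitted log2 fold change of each tested gene, by list, for light against control (left) and minocycline over light alone (right), filled where the adjusted p was under 0.05. The 8 members lie between 0.79 and 3.87 on the left and between -2.19 and -0.63 on the right, and the pan-reactive list, with medians of 3.13 and -3.49, overlaps them on both sides.

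The genes whose profile over the 6 libraries lay nearest to that of Gfap were Pde3b, a phosphodiesterase gene, Aox1, an aldehyde oxidase gene, and Osmr, with root-mean-square distances of 0.115, 0.141 and 0.146 on the centred log2 CPM scale, among 13976 genes compared. Pde3b stood at 5.76 and 7.89 CPM in the controls, 17.6 and 33.6 CPM after light, and 8.01 and 5.20 CPM with minocycline. For Serpina3n the nearest were Grap, the gene of an adaptor protein related to Grb2, at 0.379, Serping1 at 0.409 and B2m, the light chain of MHC class I, at 0.419. The nearest genes were thus farther from Serpina3n than from Gfap. B2m stood at 17.8 and 12.9 CPM in the controls, 93.3 and 234 CPM after light, and 32.9 and 41.3 CPM with minocycline. This likeness rests on 6 libraries in 3 groups.

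The 250 bases before the start were searched on both strands in the 7 of 8 genes with a RefSeq promoter, which leaves out A2m. The palindrome TTCNNNGAA, the core of sites bound by STAT proteins, occurred in 0 of the 7 and in 7.02% of 32851 promoters. TGANTCA, the core bound by AP-1, occurred in 0 of 7 and in 6.75% of all promoters. TATAAA occurred in 1 of 7, in Vim with its first base 32 bases before the start as printed above, and in 12.4% of all promoters. These counts say only which letters these windows hold.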

How the data were processed

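RNA was extracted from retinas, and the authors prepared poly-A selected, stranded TruSeq libraries, sequenced single 50-base reads, aligned them with STAR to mm10 and counted reads per gene in the RNA Express workflow. The table deposited by the authors holds counts: whole numbers that are not scaled to a common total, although the data statement of the study calls them normalized DESeq2 counts. The annotation used and the use of strand in counting are not given in the sources used here. All 6 columns were used. Replicates are described as biological, and p values measure the spread between 2 libraries a group.

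Genes were tested for each pair of groups with edgeR 4.0.16 (R 4.3.3): filterByExpr, normalisation by the trimmed mean of M values (TMM), robust quasi-likelihood fit and Benjamini-Hochberg adjustment over all genes tested, with a threshold of 0.05. The SE is the log2 fold change divided by the square root of F. DESeq2 1.42.0, other normalisations and filters, a joint fit, a replicate block and fits without each library were the alternatives. The fits were tested on simulated data. CPM used TMM factors of all 6 libraries, and log2 CPM a prior count of 2.

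The 8 members and the 21 lists were chosen with earlier results of these data known. The text names all members, up to 3 genes passing per list other than cell types by size of change in light against control and in minocycline against light, the 3 nearest profiles of Gfap and Serpina3n, and Serpina3 genes with counts. Genes were placed with GENCODE (GRCm38), and promoters came from RefSeq (GRCm38.p6).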

Additional observations from a re-analysis of the deposited data

How the results depend on the processing

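After light, 6 of the 8 genes passed in the fit described and also with DESeq2 (with and without shrunken fold changes), size factors of DESeq2, no robust estimation, both other filters, total library size and all 6 libraries in one fit. Without single libraries the count ranged from 2 to 7. Of 104 values of single genes 95 kept direction and side of the threshold, 7 lost the threshold (Gfap, Vim and Cd44 without either control, A2m without control replicate 1) and 2 gained it. The replicate numbers of control and light are not stated to mark a shared animal, litter or day. The deviations of same-numbered libraries had a correlation of -0.0107 across genes, which with 2 libraries a group cannot show whether they were paired. With the number as a replicate block 7 genes passed, S1pr3 being added at 0.90 (adjusted p = 0.0465). No paired analysis was possible because, in the comparisons with minocycline, both treated columns are headed with the same replicate number.

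With minocycline over light the count of 1 became 6 with DESeq2 in both forms, 2 without robust estimation, 5 with no filter, 5 with all 6 libraries in one fit and 0 with total library size, which moved the median of all genes by 0.24 after light and by -0.17 here. Without single libraries it ranged from 1 to 6, with the 6 reached without light replicate 1, where 706 of 15207 genes passed as lower, against 6 of 14750 with all 4 libraries. No fold change turned. Over control, the count of 0 became 2 with DESeq2 in both forms and with no filter, and ranged from 0 to 2 without single libraries. Small fold changes turned sign there, with ranges without single libraries of -0.24 to 0.38 for Gfap, -0.03 to 0.33 for Nes, -0.38 to 0.83 for S1pr3 and -0.20 to 0.46 for Chi3l1: Gfap to -0.01 with all 6 libraries in one fit, -0.24 without control replicate 1 and -0.22 without minocycline A, Nes to -0.03 without minocycline B, S1pr3 to -0.38 without control replicate 2 and -0.12 without minocycline A, and Chi3l1 to -0.20 without minocycline A. The cause was not tested. Fits without 1 library assume that the lone library varies like the others. A prior count of 0.5 moved no mean log2 CPM of the 8 by more than its SD, and with the longest transcript as length 13 of 24 levels per kb moved by more than theirs. Over the whole table, light against control passed 1079 genes as higher and 545 as lower in the fit described, 1930 and 133 with total library size and 1668 and 857 with the replicate block. Minocycline over light passed 2 and 6 in the fit described, 463 and 734 with DESeq2, 247 and 485 with no filter, 135 and 353 with all 6 libraries in one fit, 5 and 10 without robust estimation, 0 and 2 with size factors of DESeq2 and 0 of either with total library size. Minocycline over control passed 23 and 0 in the fit described, 164 and 4 with DESeq2, 183 and 4 with no filter, 3 and 0 where each library had to hold 10 counts, and 0 of either with all 6 libraries in one fit.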

Other observations

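The 2 control libraries differed in several of the genes described. S1pr3 was 2.33-fold higher in control replicate 1 than in control replicate 2, whereas Gfap was 0.656-fold. Among the gp130 and STAT3 genes, picked after their values were seen, Stat3 stood at 76.2 CPM in control replicate 1 and 163 CPM in control replicate 2, Osmr at 6.12 and 12.8 CPM, and Socs3, a feedback inhibitor of this pathway, at 22.9 and 6.06 CPM. Socs3 stood at 15.2 and 23.8 CPM after light and at 10.1 and 24.4 CPM with minocycline, so its spread within each group was as wide as between groups, and its log2 fold change after light was 0.44 (SE 0.75, adjusted p = 0.757 in edgeR's quasi-likelihood test). Control replicate 1 was also the library with 77778 counts of Xist. With 2 controls, sex and any other difference between these libraries cannot be told apart.

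Emp1 did not have the order of levels of the 8 glial genes. It stood at 1.49 and 1.34 CPM in the controls, 6.25 and 17.0 CPM after light, and 12.8 and 28.6 CPM with minocycline, and it was higher with minocycline than in the controls (log2 fold change 3.90, SE 0.45, adjusted p = 0.0366). With all 6 libraries in one fit no gene passed in this comparison, Emp1 included (0 genes, 1248 with an unadjusted p under 0.05 in edgeR). The markers of corneal epithelium, melanocytes and stroma were also highest in the minocycline libraries, and their part in the level of Emp1 was not tested.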
